A study of Mus musculus with 24 samples.

Results

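The carbonic anhydrase genes of the mouse kidney were examined as a family across 24 whole-kidney RNA-seq libraries. The members were chosen by name: the rows Car2, Car3, Car4, Car5b, Car8, Car9, Car12, Car13, Car14 and Car15 of the deposited count tables, which makes 10 of the 54393 genes listed in each table. The tables hold 6 further carbonic anhydrase genes (Car1, Car5a, Car6, Car7, Car10 and Car11), which were used only for comparison. All kidneys were taken whole at embryonic day 18.5. The knockouts, with their controls in brackets, were Dmrt2 knockout with 3 libraries (3 Dmrt2 controls), Hmx3; Hmx2 knockout with 6 libraries (6 Hmx3; Hmx2 controls) and kidneys labelled as the triple knockout of Dmrt2, Hmx3 and Hmx2 with 3 libraries (3 controls of that line). Controls are described as littermates. The labels give neither the alleles, nor the genotype of the control animals, nor the sex of the embryos, and do not say whether each library is a separate embryo, and p-values therefore cover only the variation among the libraries deposited.

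Carbonic anhydrases are zinc enzymes that convert carbon dioxide and water into bicarbonate and protons, and back. In the kidney, membrane-bound members facing the tubule fluid speed the dehydration of filtered bicarbonate, and cytosolic enzyme supplies protons to the apical proton pumps and bicarbonate to the basolateral transporters. Intercalated cells of the collecting duct, which secrete acid (type A) or bicarbonate (type B), are known for abundant cytosolic enzyme, and the 3 deleted genes encode transcription factors that the study examined in the making of intercalated cell subtypes. Dmrt2 is a DM-domain factor, and Hmx2 and Hmx3 are neighbouring homeobox genes.

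The libraries held between 52286824 and 127339273 counted reads. Hmx2 was at 2 reads in all over the 3 libraries labelled triple knockout and at 8 reads over the 6 Hmx3 Hmx2 knockouts, against 872 and 807 reads in their controls. Hmx3 had 0 and 6 reads in these knockouts and 30 and 34 reads in their controls. In the Dmrt2 knockouts Hmx2 rose from 4.06 ± 0.812 to 14.2 ± 0.443 CPM (SD, n = 3 each; log2 fold change 1.80, edgeR adjusted p = 3.0e-05), and Hmx3 had 240 reads against 42 in controls (2.28, adjusted p = 0.098). Dmrt2 fell in the Dmrt2 knockouts, to 1.57 to 2.26 CPM, a gene's reads scaled by the library total, against 12.4 to 14.8 CPM in their controls, and was higher, not lower, in the libraries labelled triple knockout (17.9 to 19.8 CPM against 10.5 to 11.95 CPM). The Dmrt2 reads therefore do not show the loss that the label names, and the group is called labelled triple knockout throughout. Whether its Dmrt2 allele keeps the counted exons or the label is wrong cannot be told from the reads. In the Hmx3 Hmx2 knockouts Dmrt2 was at 9.38 to 12.97 CPM, against 7.97 to 9.93 CPM in controls (log2 fold change 0.32, edgeR adjusted p = 0.19). Libraries with reads of Y-linked genes were 1 of 3 Dmrt2 knockouts against 3 of 3 controls, 2 of 6 Hmx3 Hmx2 knockouts against 4 of 6 controls, and 2 of 3 in each group of the triple line. Kidney genes (Pax2, Pax8, Cdh16, Nphs1, Wt1, Six2, Umod and Slc12a1) were present in every group and summed to between 2129.9 and 2573 CPM.

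The promoters of 3 members are shown because their values are followed below: Car9, a textbook target of the hypoxia-inducible factor, and Car12 and Car14, the pair of members that varied most alike. Each is the 250 bases before the annotated start, from RefSeq on GRCm38.p6, 5′ to 3′ along the gene's strand, and matches to searched motifs are in capitals. The Car9 window is chr4:43506776-43507025 on the plus strand, that of Car12 is chr9:66713436-66713685 on the plus strand and that of Car14 is chr3:95904686-95904935 on the minus strand.
Car9: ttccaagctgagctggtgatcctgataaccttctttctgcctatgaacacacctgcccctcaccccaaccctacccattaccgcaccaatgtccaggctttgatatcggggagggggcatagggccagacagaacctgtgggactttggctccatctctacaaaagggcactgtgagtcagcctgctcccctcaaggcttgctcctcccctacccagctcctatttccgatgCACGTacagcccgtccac
Car12: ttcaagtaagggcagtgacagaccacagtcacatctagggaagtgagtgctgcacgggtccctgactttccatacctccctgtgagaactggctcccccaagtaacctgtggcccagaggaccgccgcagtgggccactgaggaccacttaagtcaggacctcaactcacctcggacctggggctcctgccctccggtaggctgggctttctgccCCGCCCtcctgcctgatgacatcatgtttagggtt
Car14: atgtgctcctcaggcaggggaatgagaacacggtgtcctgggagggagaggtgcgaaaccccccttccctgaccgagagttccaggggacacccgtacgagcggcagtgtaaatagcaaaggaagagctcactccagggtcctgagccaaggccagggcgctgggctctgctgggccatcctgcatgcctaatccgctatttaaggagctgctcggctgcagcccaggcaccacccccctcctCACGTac
The capitals in Car9 and Car14 are CACGT, the hypoxia response core ACGTG read on the other strand, beginning 18 and 7 bases before the start. This core occurred on either strand in 16.6% of 32851 mouse promoter windows of the same length. The capitals in Car12 are CCGCCC, the GC box GGGCGG on the other strand, a motif found in 32.7% of windows. The TATA box TATAAA (12.4% of windows) and the HNF1 motif GTTAAT (6.43%) matched none of the 3 windows. A match describes letters and is not a binding site. Of the 6 members with an entry in the promoter table, 2 held the hypoxia core and 2 a GC box (Car12 and Car5b). Car2, Car3, Car8 and Car13 had no entry.

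In control kidneys, 3 genes made up most of the family's RNA. Levels of different genes were compared per length, as CPM per kilobase of the gene's summed exons, over the 12 control libraries. Car2, the main cytosolic enzyme of kidney and red cells, had a median of 62.1 CPM per kilobase (48.8 to 71.3). Car4, an enzyme tethered to the outer membrane face by a lipid anchor, had 42.1 (23.1 to 65.2), and Car12, a transmembrane enzyme with its active site outside the cell, had 24.8 (16.7 to 30.5). Together they held 87.7 to 91.1% of the summed per-length level of the 10 members in every control library. Among the 34994 genes with reads, the mean control level of Car2 per length lay at percentile 98.0, that of Car4 at 96.8 and that of Car12 at 93.6.

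The other members followed at a lower level, with no overlap between Car12 and the next. Car14, a transmembrane enzyme known from the proximal tubule, had a median of 4.56 CPM per kilobase. Car8 followed at 3.88. Its protein lacks catalytic activity and binds the inositol trisphosphate receptor. Car5b, the mitochondrial form outside the liver, had 2.79, and the cytosolic Car13 had 1.64. Car9, transmembrane, had 0.791, Car3, a cytosolic form of low activity abundant in muscle and fat, had 0.647, and Car15, a lipid-anchored form, had 0.631.

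Several neighbours in this order had overlapping ranges across libraries, while some of them kept their order within nearly every library. Car2 lay above Car4 in 11 of 12 control libraries and Car4 above Car12 in 11 of 12, with overlapping ranges each time. Car14 lay above Car8 in 11 of 12, again with overlap. Car5b and Car13 did not overlap. Car9, Car3 and Car15 could not be ordered: Car9 lay above Car3 in 7 of 12 libraries and Car3 above Car15 in 7 of 12.

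**Figure D1:**
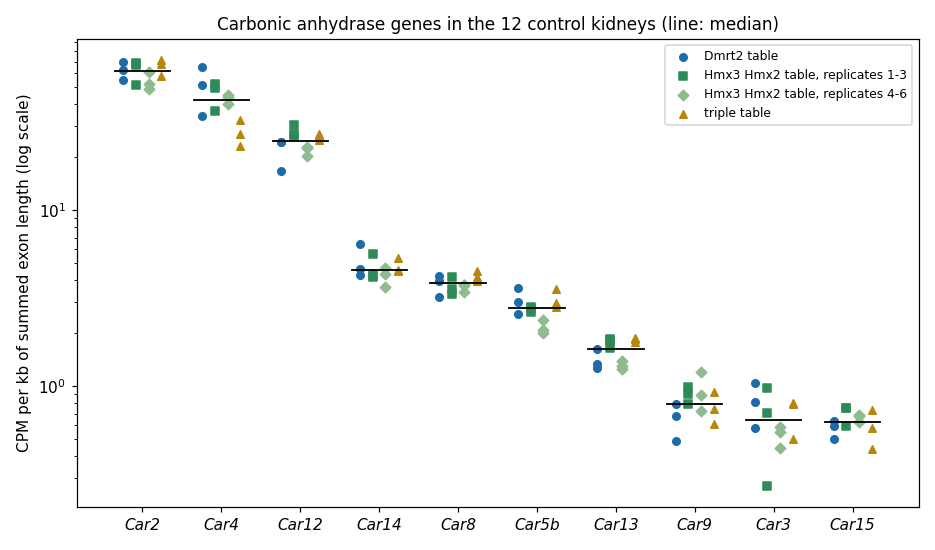
Level of each of the 10 members in the 12 control kidneys, as CPM per kilobase of summed exon length on a log axis; each point is a library, its shape and colour the deposited table, and the line the median. Car2, Car4 and Car12 stand above the rest, from 16.7 upward, and the 7 others lie at or below 6.47.

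Exon sharing limits some of these levels. Reads were counted without strand, and the file headers name no option to count reads that overlap several genes. Car15 shares 1253 exon bases (65.7% of its exon length) with Gm20518 on the same strand. Car14 shares 445 bases (17.5%) with Aph1a on the opposite strand, a gene at 43.4 to 61.5 CPM, and Car9 shares 214 bases (9.29%) with Gm12454 on the opposite strand. Per kilobase of exon bases shared with no other gene, a scale chosen after these overlaps were seen, Car15 was at 1.84 and stood above Car13 (1.64) in 10 of 12 control libraries. The order of the 5 highest members was the same on that scale.

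By the place where the enzymes act, the extracellular-facing members (Car4, Car9, Car12, Car14 and Car15) held 41.1 to 58.8% of the family's per-length level in control libraries and the cytosolic members (Car2, Car3 and Car13) held 36.5 to 53.7%. The mitochondrial Car5b held 1.46 to 2.47% and the non-catalytic Car8 2.06 to 3.59%. Of the genes outside the chosen members, Car11, a relative without catalytic activity, stood at a median of 3.87 CPM per kilobase (3.00 to 11.5). Car8 had a near-equal median of 3.88 (3.21 to 4.52) but lay above Car11 in only 4 of 12 control libraries. The cytosolic Car7 was at 0.897. The secreted Car6 was at 0.0738. Car1, the second red-cell enzyme, had 42 reads over all 24 libraries and none in 12 of them. Car5a, the liver mitochondrial form, had 53 reads and none in 12 libraries.

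The members lie on 5 autosomes and the X chromosome (mm39). Car13 (14706787 to 14728062), Car3 (14928572 to 14937583) and Car2 (14951333 to 14965830) stand in a row on the plus strand of chromosome 3, with Car1 between Car13 and Car3 on the minus strand. Their control levels were not alike: per kilobase, Car2 was at 62.1, Car13 at 1.64 and Car3 at 0.647. Car14 lies elsewhere on chromosome 3 (95805080 to 95812003, minus strand). Car8 and Car9 are on chromosome 4, Car12 on 9, Car4 on 11, Car15 on 16 and Car5b on X.

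Control kidneys differed between lines, and between the deposited tables of a line, for some members. Car4 had 128, 101 and 68.0 CPM in the Dmrt2 controls and 64.2, 45.5 and 53.1 CPM in the triple-line controls. These groups did not overlap, and the ratio of their means was 1.82. Car12 and Car13 also did not overlap between these control groups, which makes 3 of 10 members beside 42.4% of the 19520 genes set side by side in the same way. For the Dmrt2 and triple lines, the line, the deposited table and its sequencing cannot be told apart. Controls of the Hmx3 Hmx2 line also differed between its first and second table. Car12 had 201 to 232 CPM in the first and 155 to 175 CPM in the second, without overlap. Car13 (3.78 to 4.28 and 2.89 to 3.22 CPM) and Car5b (16.7 to 18.0 and 12.8 to 15.2 CPM) did not overlap either. The other members did. The share of all genes without overlap between these sets of controls was not computed, so these members are not shown to stand apart from other genes. Each knockout was therefore tested relative to controls of its own table.

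In the Dmrt2 knockouts the largest change relative to its error was that of Car2, which lay lower in every knockout, and no member passed the test. None of the 10 members was called at an adjusted p of 0.05 in edgeR's quasi-likelihood test, beside 0.444% of the 19807 genes tested (88 genes). At an unadjusted p under 0.05 stood 1 member, Car2, beside 12.3% of genes. DESeq2 called 1 member, again Car2, among 417 genes that it called in all. The CPM of Car2 was 152, 133 and 169 in the controls and 114.6, 117.8 and 117.1 in the knockouts. All 3 knockouts lay below all 3 controls and close to each other. Without overlap in either direction stood 2 of 10 members, Car2 (lower) and Car9 (higher), beside 18.2% of genes.

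The log2 fold change of Car2 was −0.39 (SE 0.079, 95% interval −0.56 to −0.22), a level 0.764 times that of controls, with an adjusted p of 0.062 in edgeR. This value was not called, and its side of the threshold moved with the test: DESeq2 called it (−0.39, adjusted p = 4.5e-04), as did edgeR without the filter on low counts (−0.39, adjusted p = 4.4e-07) and edgeR without control replicate 2, the lowest control (−0.47, adjusted p = 0.0085). In all, DESeq2 called 417 genes and edgeR without the filter 676, beside 88 in the main fit. With a term for Y-linked reads the log2 fold change was −0.42 and the edgeR adjusted p 0.72. With this term edgeR called 13 genes in all, against 88 without it. The only knockout library with Y-linked reads had 114.6 CPM and the other knockouts 117.8 and 117.1 CPM. Since every control had Y-linked reads, knockout and embryo sex can be told apart only through that library. A part of embryo sex in the Car2 value was thus not settled.

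Marker genes of several cell types were set beside Car2. Of the 5 type A intercalated genes on the list (Slc4a1, Aqp6, Kit, Adgrf5 and Slc26a7), 3 fell in the Dmrt2 knockouts and none rose. Their summed level was 167 to 185 CPM in knockouts against 236 to 264 CPM in controls. Most of this sum is Adgrf5, which was not called, and Kit, with control means of 153 and 54.1 CPM. Slc4a1 and Aqp6 had control means of 17.0 and 14.6 CPM. None of the 5 was at 0 reads. The 11 genes shared by intercalated cells summed to 687 to 713 CPM in knockouts and 741 to 776 CPM in controls, with 1 of 11 called, lower. The 7 listed genes of the other intercalated subtypes (type B, and cells neither A nor B) summed to 152 to 175 CPM in knockouts and 117 to 129 CPM in controls, with 3 called higher and 1 lower. The 7 principal cell genes summed to 606 to 672 CPM in knockouts and 687 to 926 CPM in controls, also without overlap. edgeR called none of these 7, and DESeq2 called 1, among 417 genes in all. At an unadjusted p under 0.05 stood 1 of the 7, beside 12.3% of genes. Red cells also hold Car2: 9 erythroid genes summed to 1068 to 1230 CPM in knockouts and 958 to 1314 CPM in controls, with overlap. edgeR and DESeq2 called none of the 9, and 1 stood at an unadjusted p under 0.05, beside the same 12.3% of genes. Other lists separated too: 14 hypoxia-response genes summed to 1789 to 1918 CPM in knockouts and 1927 to 2259 CPM in controls. For 8 skeletal muscle genes the sums were 5.77 to 6.47 and 6.70 to 7.90 CPM. The sums of the proximal tubule, endothelium, adipose, liver and adrenal lists overlapped between the groups. Whether the cell types or responses behind these lists have a part in the Car2 value was not tested. In whole kidneys, fewer cells of a type and less RNA per cell cannot be told apart.

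**Figure D2:**
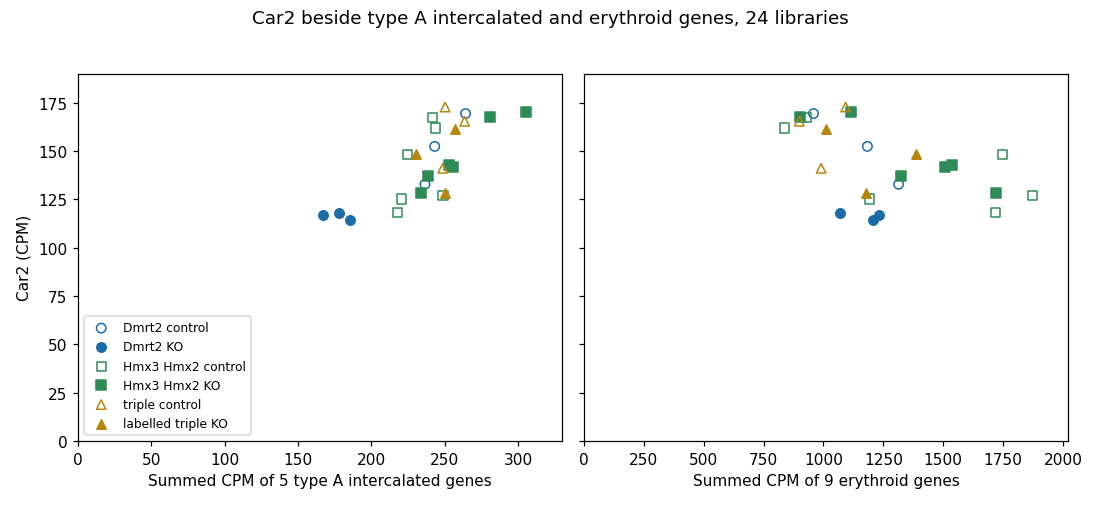
Car2 level in CPM (vertical axes) against the summed CPM of 5 type A intercalated genes (left) and 9 erythroid genes (right), with 1 point per library in 24 libraries; filled symbols are knockouts. The 3 Dmrt2 knockouts form a separate group at a low sum of the 5 genes (167 to 185 CPM) in the left panel. They lie within the range of the other libraries for the erythroid sum. Adgrf5 and Kit make up most of the sum in the left panel. Sums of other lists that are not drawn, among them principal cell and hypoxia-response genes, also did not overlap between Dmrt2 knockouts and their controls.

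The other members changed by amounts that did not pass the test. Car9 had 1.82, 1.13 and 1.58 CPM in Dmrt2 controls and 1.85, 2.21 and 1.83 CPM in knockouts. The knockouts lay above the controls, but by as little as the gap between the highest control and the lowest knockout, 1.82 and 1.83 CPM, and the log2 fold change was 0.37 (SE 0.22, edgeR adjusted p = 0.54). Of 14 hypoxia-response genes (among them Vegfa, Slc2a1, Egln3 and Pdk1), none was called by edgeR or DESeq2 in any of the 3 comparisons. In the Dmrt2, Hmx3 Hmx2 and triple comparisons 0, 2 and 1 of them stood at an unadjusted p under 0.05. The shares over all genes tested were 12.3%, 4.93% and 17.9%. Car5b had 23.1, 16.4 and 19.3 CPM in controls and 18.9, 14.3 and 14.7 CPM in knockouts, which overlap. Its log2 fold change was −0.30 (SE 0.14, edgeR adjusted p = 0.41), and −0.07 with a term for Y-linked reads.

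Car12 and Car4 show what spread means here. Car12 had 187, 127 and 186 CPM in Dmrt2 controls and 185, 158 and 156 CPM in knockouts, so that control replicate 2 lay below every knockout and the other controls above. Its log2 fold change was −0.01 (95% interval −0.42 to 0.40). Car4 had 128, 101 and 68.0 CPM in controls and 132, 102 and 118 CPM in knockouts, a log2 fold change of 0.24 with an interval from −0.46 to 0.94. Intervals of this width hold both no change and changes larger than that of Car2.

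The remaining 5 members ranged from −0.35 (Car3) to 0.12 (Car8) on the log2 scale. Car8 had 16.4, 12.4 and 15.3 CPM in controls and 15.8, 16.0 and 16.3 CPM in knockouts, with a 95% interval of −0.10 to 0.34. Car14 stood at 0.01 (SE 0.15) and Car13 at −0.03 (SE 0.16). Car3, at 1.67 to 3.01 CPM in controls and 1.60 to 2.22 CPM in knockouts, and Car15, at 0.961 to 1.21 and 0.880 to 1.079 CPM, rested on few reads, and their groups overlapped. The median log2 fold change over the 10 members was −0.02, beside −0.0021 over all genes tested.

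In the Hmx3 Hmx2 knockouts every member overlapped with its controls when the libraries of both deposited tables were pooled. edgeR called none of the 10 members, beside 0.021% of the 19050 genes tested (4 genes). DESeq2 called none either. At an unadjusted p under 0.05 stood 1 member, Car4, beside 4.93% of genes. No member lacked overlap between the groups, beside 0.0682% of genes. The log2 fold changes ran from −0.25 (Car4) to 0.25 (Car3), with a median of −0.0060 beside −0.0052 over all genes tested.

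Car4 ranged from 72.5 to 103 CPM (median 87.8) in the 6 Hmx3 Hmx2 controls and from 60.6 to 86.0 CPM (median 73.2) in the 6 knockouts. All 6 knockouts lay below the mean of the controls, but the ranges overlapped. The log2 fold change was −0.25 (SE 0.11, edgeR adjusted p = 0.94). It was −0.30 within the first deposited table (replicates 1 to 3) and −0.19 within the second (replicates 4 to 6).

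The abundant members had narrow intervals in this larger comparison. Car12 ranged from 155 to 232 CPM (median 188) in controls and from 152 to 231 CPM (median 181) in knockouts. The groups overlapped throughout, and the log2 fold change was −0.02 (95% interval −0.12 to 0.08). Car2 ranged from 118 to 167 CPM (median 138) in controls and from 128 to 170 CPM (median 142) in knockouts, a log2 fold change of 0.07 (95% interval −0.13 to 0.27). For Car8 the interval was −0.09 to 0.18 and for Car5b −0.10 to 0.19.

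In the libraries labelled triple knockout Car13 lay lower in all 3 and Car9 higher on average, without passing the test. edgeR called none of the 10 members, beside 1.03% of the 21537 genes tested (222 genes). DESeq2 called none. At an unadjusted p under 0.05 stood 1 member, Car13, beside 17.9% of genes, and the same member was the only 1 of 10 without overlap, beside 23.2% of genes. Its CPM was 4.11, 4.25 and 4.32 in controls and 2.74, 3.21 and 3.91 in the labelled knockouts. All 3 labelled knockouts lay below the controls, which were close together. The log2 fold change of Car13, a cytosolic enzyme, was −0.39 (SE 0.15, 95% interval −0.71 to −0.06, edgeR adjusted p = 0.21). Over the 10 members the median log2 fold change was −0.13, beside 0.00098 over all genes tested.

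Car9 again lay higher on average and again did not pass the test. It had 2.14, 1.40 and 1.71 CPM in controls of the triple line and 1.95, 2.51 and 2.84 CPM in the labelled knockouts. The groups overlapped, since a control lay above the lowest labelled knockout. The log2 fold change was 0.45 (SE 0.21, 95% interval −0.01 to 0.90, edgeR adjusted p = 0.29).

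Car2 had 165, 173 and 141 CPM in these controls and 149, 128 and 161 CPM in the labelled knockouts. The ranges overlapped, and the log2 fold change was −0.15 (95% interval −0.39 to 0.08). Type A intercalated genes summed to 231 to 257 CPM in the labelled knockouts and 249 to 263 CPM in controls, with 2 of 5 called, both lower. Those were Slc4a1 (log2 fold change −1.28) and Aqp6 (−1.39). Adgrf5 (0.05) and Kit (0.15), which hold most of the sum, were not called, nor was Slc26a7 (−0.38). Car12 had 207, 205 and 190 CPM in controls and 224, 179 and 195 CPM in the labelled knockouts (log2 fold change −0.03, 95% interval −0.21 to 0.15). Car4 had 64.2, 45.5 and 53.1 CPM in controls and 55.6, 75.0 and 54.2 CPM in the labelled knockouts (0.16, 95% interval −0.33 to 0.65).

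The other 5 members lay between −0.38 (Car15) and −0.04 (Car8). Car15 had 1.40, 1.11 and 0.846 CPM in controls and 0.780, 0.777 and 1.07 CPM in the labelled knockouts, which overlap. Car5b stood at −0.14 (SE 0.097), Car14 at −0.12 (SE 0.10) and Car3 at −0.18 (SE 0.24). Among the 6 genes outside the members, Car6 was at 0.129 to 0.333 CPM in controls and 0.362 to 0.690 CPM in the labelled knockouts. Its log2 fold change was 1.29 (SE 0.44, edgeR adjusted p = 0.17), so that it too was not called.

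**Figure D3:**
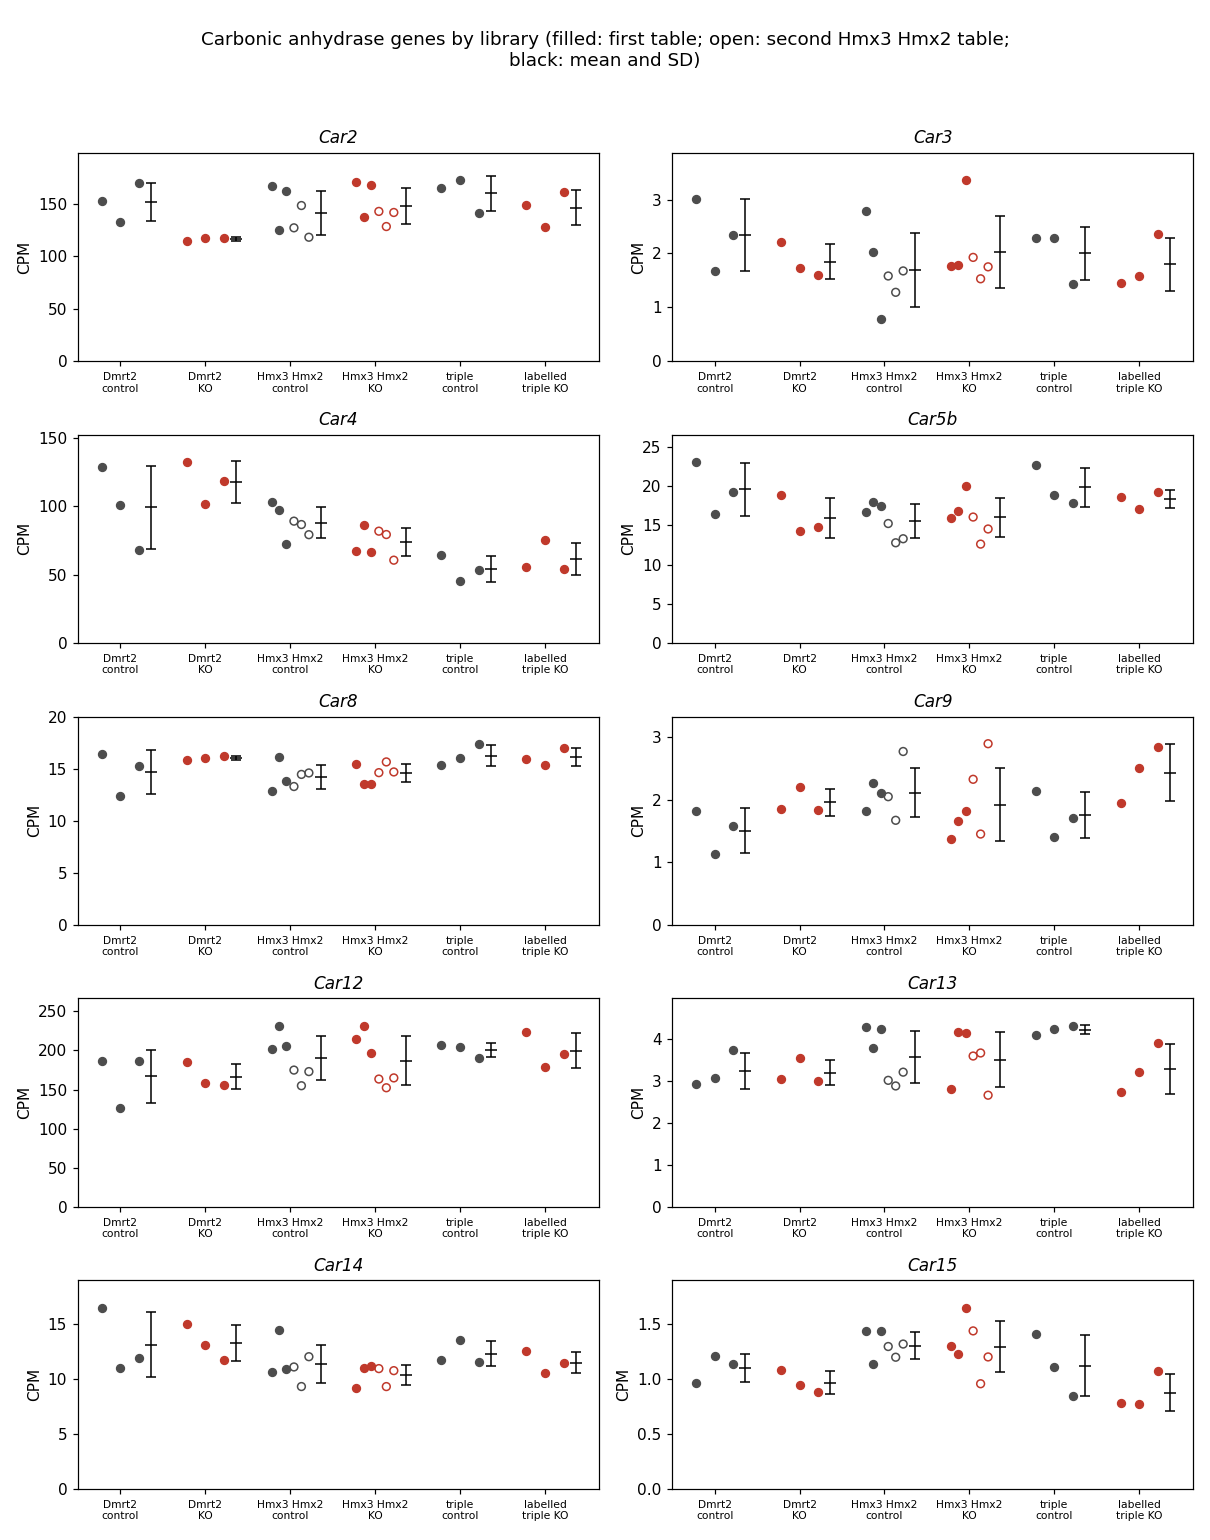
CPM of each of the 10 members in all 24 libraries, with 1 panel per gene, vertical axes from 0 and groups along the horizontal axis; filled points are the first or only table of a line, open points the second Hmx3 Hmx2 table, and black marks the mean with SD. The Car2 panel shows the Dmrt2 knockouts together at 114.6 to 117.8 CPM below their controls, while most other groups overlap with their controls.

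**Figure D4:**
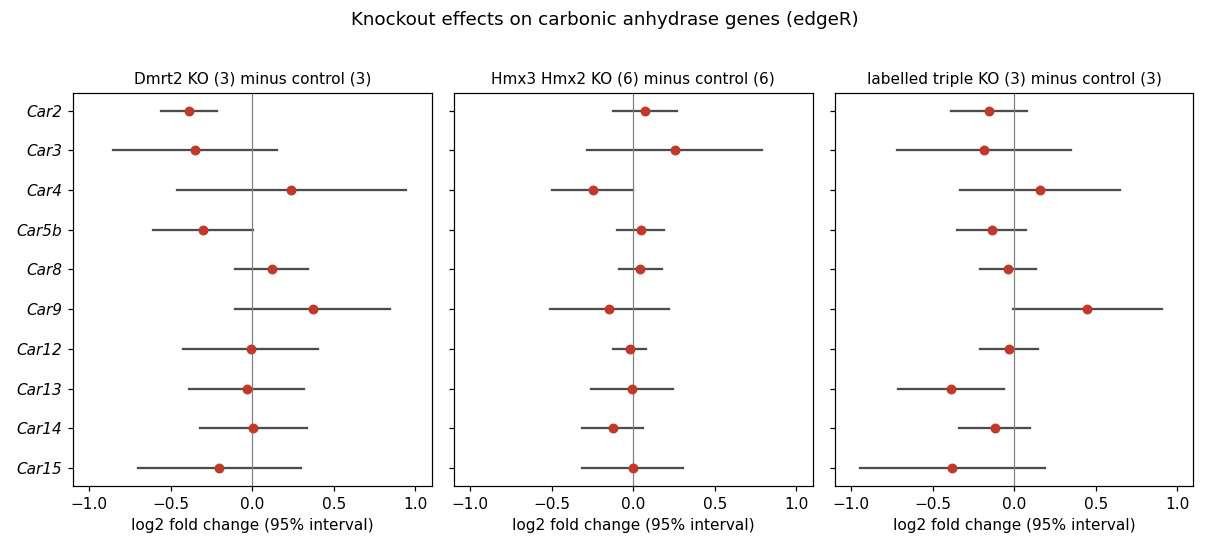
Log2 fold change of each member (points, knockout minus control) with its 95% interval (bars) from edgeR in the 3 comparisons, with the number of libraries in brackets. The intervals of Car2 in the Dmrt2 comparison, Car4 in the Hmx3 Hmx2 comparison and Car13 in the triple line leave out 0, and none of these values passed the adjusted threshold.

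The effects were also set against each other in 1 fit of all 24 libraries, in which each effect stays relative to its own controls. None of the 10 members was called for a difference between effects, beside 0.394% of 22101 genes for triple minus Dmrt2, 0.968% for triple minus Hmx3 Hmx2 and 0.154% for Dmrt2 minus Hmx3 Hmx2. At an unadjusted p under 0.05 stood 0, 1 and 2 members, beside 11.4%, 13.3% and 7.67% of genes, and DESeq2 called none in any of these. The Dmrt2 effect on Car2 lay 0.46 below the Hmx3 Hmx2 effect on the log2 scale (difference −0.46, SE 0.15, edgeR adjusted p = 0.42). For Car5b the same difference was −0.35 (SE 0.15, adjusted p = 0.57). The triple effect on Car9 minus the Hmx3 Hmx2 effect was 0.59 (SE 0.28, adjusted p = 0.37).

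Y-linked reads were used as a term because Car5b is X-linked and the groups differ in their share of such libraries. None of the 10 members was called for that term, beside 0.095% of 22101 genes, none stood at an unadjusted p under 0.05, beside 4.43% of genes, and DESeq2 was not run for that term. Car5b was at 0.05 (SE 0.068) on the log2 scale in libraries with Y-linked reads relative to those without, and Car2 at 0.07 (SE 0.070).

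Transporters that work beside the carbonic anhydrases were counted from lists. Of 14 bicarbonate transporter genes, 13 were tested. In the Dmrt2 knockouts 2 rose and 1 fell. Slc26a4, which encodes pendrin, the apical chloride-bicarbonate exchanger of bicarbonate-secreting cells, rose from 4.54 ± 1.53 to 16.3 ± 1.33 CPM (SD, n = 3 each; log2 fold change 1.84, edgeR adjusted p = 0.016). Slc4a9, a basolateral transporter of the same cells, rose from 47.9 ± 1.63 to 69.0 ± 6.96 CPM (0.52, adjusted p = 0.0058). Slc4a1, which encodes the anion exchanger of red cells and of acid-secreting cells, fell from 17.0 ± 1.65 to 3.74 ± 0.582 CPM (log2 fold change −2.19, edgeR adjusted p = 2.4e-06). The other 10 did not pass the test, among them Slc4a4, the sodium-bicarbonate cotransporter of the proximal tubule, at 0.15 (SE 0.18).

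In the Hmx3 Hmx2 knockouts 1 of the 13 was called, Slc26a4, which fell from 3.64 ± 0.647 to 1.47 ± 0.240 CPM (SD, n = 6 each; −1.31, adjusted p = 4.8e-04). In the labelled triple knockouts 3 rose and 1 fell. Slc4a9 rose from 42.2 ± 4.66 to 87.5 ± 11.1 CPM (1.03, adjusted p = 0.0065), Slc26a4 from 4.41 ± 0.224 to 7.68 ± 0.169 CPM (0.77, adjusted p = 0.0065) and Slc4a3, an anion exchanger, from 42.4 ± 2.17 to 56.2 ± 3.33 CPM (0.38, adjusted p = 0.018). The level of Slc4a1 was 7.38 ± 1.196 CPM in the labelled knockouts and 17.6 ± 2.42 CPM in controls, a fall by 1.28 on the log2 scale (log2 fold change −1.28, adjusted p = 0.0041, 3 libraries a group).

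Of 11 proton exporter genes (sodium-proton exchangers, proton-potassium pumps and kidney subunits of the proton pump), all were tested. Atp6v1g3, a pump subunit of intercalated cells, was the only 1 called in the Dmrt2 knockouts, where it fell from 13.2 ± 1.19 to 7.88 ± 0.900 CPM (SD, n = 3 each; −0.75, edgeR adjusted p = 0.015). It was also the only 1 called in the labelled triple knockouts, where it fell from 14.7 ± 1.02 to 10.7 ± 1.13 CPM (−0.48, adjusted p = 0.040). None of the 11 was called in the Hmx3 Hmx2 knockouts by edgeR or DESeq2, and 4 stood at an unadjusted p under 0.05, beside 4.93% of genes. The median log2 fold change of the list was −0.11 in the Dmrt2, 0.14 in the Hmx3 Hmx2 and −0.06 in the triple comparison. Of 11 proximal tubule genes, where Car4 and Car14 are known to act, none was called by edgeR in any comparison. In the Dmrt2, Hmx3 Hmx2 and triple comparisons 2, 1 and 6 of them stood at an unadjusted p under 0.05. The shares over all genes tested were 12.3%, 4.93% and 17.9%. DESeq2 called 2, 0 and 5 of the 11 proximal tubule genes. In all it called 417 genes in the Dmrt2 and 1034 in the triple comparison. They summed to 3331 to 3691 CPM in Dmrt2 knockouts and 2978 to 3986 CPM in their controls.

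Across libraries the members did not vary as a block. Likeness was measured as the Pearson correlation of log2(CPM + 0.5), centred within each deposited table, over 24 libraries that share tables and knockout groups, and is given as a description. Among the 10 members the most alike pair was Car12 and Car14, at 0.64, and the least alike was Car2 and Car4, at −0.55. Of 15040 genes with a mean of at least 1 CPM, those most like Car2 were Efhd1 (0.84), Hsd17b2 (0.83) and Lamtor5 (0.83). Those most like Car4 were Lhx1os (0.87), Pcyox1l (0.79) and Pex13 (0.76), and those like Car12 included Atp2c1 (0.79) and Cdhr2 (0.76).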

How the data were processed

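The submitters' processing notes name fastp 0.20.1, STAR 2.7.0e, featureCounts 2.0.1 and the genome build mm39. The file headers name featureCounts 2.0.3 and a count over exons by gene name, without strand. The deposited values are raw counts, as the authors left them, in 4 tables. Between 87.9 and 94.1% of counts from 1 to 19 were even, so both reads of a pair were counted. 2 columns matched no sample and were not used. From these counts, CPM and CPM per kilobase of exon were computed, and each knockout was tested against controls of its own table with edgeR 4.0.16 (R 4.3.3; TMM scaling, filterByExpr, robust quasi-likelihood fit, Benjamini-Hochberg over all genes tested, threshold 0.05), with a table term for the Hmx3 Hmx2 line. DESeq2 1.42.0, other scalings, filters and covariates, a replicate block and leaving out each library were alternatives. The edgeR script was tested on simulated data. Members and gene lists were chosen with earlier results of these data known. The genes named by rule are all family members, the called genes of the transporter and exporter lists, the deleted genes, and the 3 genes most like each of the 3 members highest per length, of which 1 is not reported here. Marker lists are named in part or whole to say what they hold. Genes sharing exons with members follow from the annotation, and Slc4a4 and the genes most like Car5b were chosen after their values were seen.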

Additional observations from a re-analysis of the deposited data

Results flagged for a closer look

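Car3, the cytosolic form known from muscle and fat, had a library far from the rest of its group in the Hmx3 Hmx2 knockouts. Replicate 3 stood at 3.37 CPM and the other 5 knockouts at 1.53 to 1.93 CPM. The gap to the nearest library was 0.784 of the whole range, above Dixon's critical value of 0.625 for 6 libraries. It was the only outlying library in the 20 groups of 4 to 10 libraries examined, where chance alone marks about 5 in 100.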

How the results depend on the processing

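Car2 in the Dmrt2 knockouts was the only member whose side of the threshold moved: 1 member was called with DESeq2, with no filter on low counts, and without Dmrt2 control replicate 2, so that leaving out a library gave 0 to 1 members called. Its log2 fold change ran from −0.47 to −0.29 when a library was left out. No member was called under any alternative in the Hmx3 Hmx2 and triple comparisons.

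Members near 0 changed sign. In the Dmrt2 comparison Car12 was 0.0078 with the replicate block and 0.13 with the Y-linked covariate; leaving out a library gave −0.17 to 0.085 for Car12, −0.12 to 0.085 for Car13 and −0.11 to 0.20 for Car14. In the Hmx3 Hmx2 comparison, replicates 4 to 6 alone gave 0.048 for Car9 and 0.13 for Car13, and replicates 1 to 3 alone gave 0.018 for Car12 and 0.070 for Car15. Car15 was also 9.3e-04 with DESeq2, 0.0025 with a minimum mean of 1 CPM and 0.060 with the Y-linked covariate. Leaving out a library there gave −0.054 to 0.0019 for Car12, −0.053 to 0.080 for Car13 and −0.071 to 0.068 for Car15. In the triple comparison it gave −0.010 to 0.30 for Car4, −0.079 to 4.8e-04 for Car8 and −0.13 to 0.035 for Car12. None of these values was past the threshold, and the cause of the sign changes was not tested.

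The count of genes called moved more. In the Dmrt2 comparison it was 88, and 417 with DESeq2, 676 with no filter, 13 with the Y-linked covariate and 46 with the robust fit off. Leaving out a library gave 26 (without knockout replicate 2) to 195 (without control replicate 1), and 53 without control replicate 3. In the Hmx3 Hmx2 comparison it was 4, and 2 with a minimum mean of 1 CPM, with replicates 1 to 3 alone and with replicates 4 to 6 alone. In the triple comparison it was 222, and 1034 with DESeq2, 1510 with no filter, 103 with the robust fit off, 573 in the joint fit and 51 with the replicate block. Leaving out a library gave 20 (without knockout replicate 3) to 438 (without control replicate 3), with 145 and 84 without control replicates 1 and 2 and 96 without knockout replicate 2.

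Replicate numbers were not shown to pair the libraries: same-numbered deviations correlated at 0.12, 0.10 and 0.07 in the Dmrt2 line, where each knockout was most like the control of its own number, at −0.02 to 0.26 in the Hmx3 Hmx2 line and at −0.28 to −0.12 in the triple line. With the replicate block, 0 members were called in each comparison, and 80, 5 and 51 genes.

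On plain CPM, which does not correct for length, Car12 stood first and Car2 second. Car3, Car9 and Car15 rest on 3599, 3665 and 2101 reads over 24 libraries, and the 95% intervals of all 3 in the Dmrt2 comparison hold a change as large as that of Car2.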

Other observations

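Car5b, the mitochondrial member, was singled out after its values were seen. The genes most like it across the 24 libraries were Cyp2j5 (Pearson correlation 0.82), Slc17a3 (0.81) and Slc23a1 (0.81), with the measure, centring and shared libraries as for the other members. Slc17a3 and Slc23a1 encode an organic anion transporter and an ascorbate transporter known from the proximal tubule.

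Car11, outside the chosen members, had an uneven level in the Dmrt2 line, also noticed after the fact. It ranged from 8.99 to 22.2 CPM in the 3 controls and from 7.57 to 16.2 CPM in the 3 knockouts. In the triple line it ranged from 5.78 to 7.58 CPM in controls and from 6.77 to 7.78 CPM in the labelled knockouts.

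Chromosome 3 carries Car2, Car3, Car13 and Car14. In the Dmrt2 comparison edgeR called 18 of its 1015 tested genes, beside 88 of the 19807 tested in all (0.444%). Within 5 Mb of Car2 0 of 30 tested genes were called by edgeR, and within 5 Mb of Car14 it was 4 of 165. In the triple comparison it was 12 of 1141 on the chromosome, beside 222 of 21537 in all (1.03%), 0 of 31 near Car2 and 0 of 188 near Car14. In the Hmx3 Hmx2 comparison 0 of 979 were called, beside 4 of 19050 in all.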
